A study of Homo sapiens with 12 samples.

Results

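The set described here holds 7 genes, the prostate lineage factors FOXA1 and GRHL2 and the nuclear receptor cofactors NCOA1, NCOA2, NCOA3, NCOR1 and EP300. They were found by gene symbol, and all 7 were present among the 60660 genes measured. The libraries came from LNCaP, an androgen-sensitive human prostate cancer (PCa) cell line from a lymph node metastasis, and from 22Rv1, a PCa cell line from a xenograft that relapsed after castration. Each line was transfected with NC-mimic, a negative control RNA, or with piR-4447944 mimic, a synthetic 2′ O-methyl modified RNA with the sequence of a PIWI-interacting RNA (piRNA). All 4 groups were under androgen deprivation, in 10% charcoal-stripped fetal serum (CS-FBS), so there was no group with androgen. Each group held 3 libraries, which makes 12 in all. The methods and legends describe experiments in triplicate and independent experiments. The labels number the libraries of a group without naming the culture of each, so it is not known here whether they came from separate cultures, and p-values measure the spread between these libraries. The overexpression of the piRNA itself cannot be read from these mRNA libraries, and the time between transfection and RNA extraction was not given in the sources used here.

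FOXA1 is a pioneer factor, which opens compact chromatin so that the androgen receptor can reach its enhancers, and GRHL2 is a Grainyhead factor that maintains epithelial genes. Once a steroid receptor is bound to DNA it recruits coactivators of the p160 family, NCOA1, NCOA2 and NCOA3 (also called SRC-1, SRC-2 and SRC-3), which in turn bring in EP300, a histone acetyltransferase. NCOR1 has the opposite role and holds the histone deacetylase HDAC3 at repressed genes. In the prostate these factors set which genes respond to androgen and how strongly, and several of them are known to be altered in PCa.

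The libraries held between 12161091 and 22179601 expected counts (reads per gene as RSEM estimates them), and the 7 genes together took between 11083 and 28290 of them. Keratins and other luminal epithelial markers were present in every group (4 of 4 with a mean TPM over 1, summed TPM between 915 and 1659 per library), and 0 of 3 basal markers reached that level. For 3 neuroendocrine markers, the summed TPM was between 61.0 and 72.6 in the 22Rv1 libraries and between 0.74 and 2.10 in the LNCaP libraries. Of these, INSM1 was at 0 in every 22Rv1 library but not in every LNCaP library, so the sum in 22Rv1 came from the other 2. The part of these markers in the differences between the lines was not tested. Both replicate 3 libraries of 22Rv1 stood apart from replicates 1 and 2, at 41.4 to 117.9 for the chi-square per gene against 3.56 to 16.5 in all other pairs of replicates. The mitochondrial share of counts was 2.23% in the mimic library of replicate 3 of 22Rv1 and between 4.24% and 5.38% in all other libraries. The summed TPM of 4 stromal markers was 101 and 116.8 in the replicate 3 libraries of 22Rv1, between 25.9 and 37.2 in the other 22Rv1 libraries and between 31.5 and 49.95 in LNCaP. Most of it in replicate 3 was VIM (vimentin, 87.0 and 93.9 TPM), and COL1A2 was at 0 in every LNCaP library. The part of these values in the results was not tested. Values without replicate 3 libraries of 22Rv1 are given beside many of the results, but not beside every result that they move. In bulk libraries such as these, fewer cells of a type and less RNA per cell cannot be told apart.

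FOXA1 was the most abundant of the 7 genes and NCOA3 or NCOA1 the least. In TPM, the transcripts of a gene per 1000000 transcripts, which are scaled for length, FOXA1 had a mean of 283 ± 10.7 (SD, n = 3) in LNCaP with NC-mimic and 172 ± 11.0 in 22Rv1 with NC-mimic. It was above every other member in 12 of 12 libraries, and NCOR1 was the next in 12 of 12, at 101 ± 5.10 and 63.2 ± 4.74 TPM in the same groups. Over the LNCaP libraries, 97.9% of 18720 genes had a lower mean TPM than FOXA1, and over the 22Rv1 libraries 96.4%. EP300, GRHL2 and NCOA2 formed a middle range, with means of 40.2 ± 6.19, 34.2 ± 3.11 and 32.1 ± 1.26 TPM in LNCaP with NC-mimic. EP300 was above GRHL2 in 11 libraries, and GRHL2 above NCOA2 in 11. NCOA1 (17.4 ± 1.68 TPM) and NCOA3 (10.1 ± 1.00 TPM) were the lowest, and in the LNCaP libraries 60.7% of genes had a lower mean than NCOA1 and 49.5% a lower mean than NCOA3. NCOA1 was above NCOA3 in all 6 LNCaP libraries, but in 22Rv1 they overlapped at 7.47 ± 2.37 and 7.99 ± 1.05 TPM with NC-mimic.

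**Figure D1:**
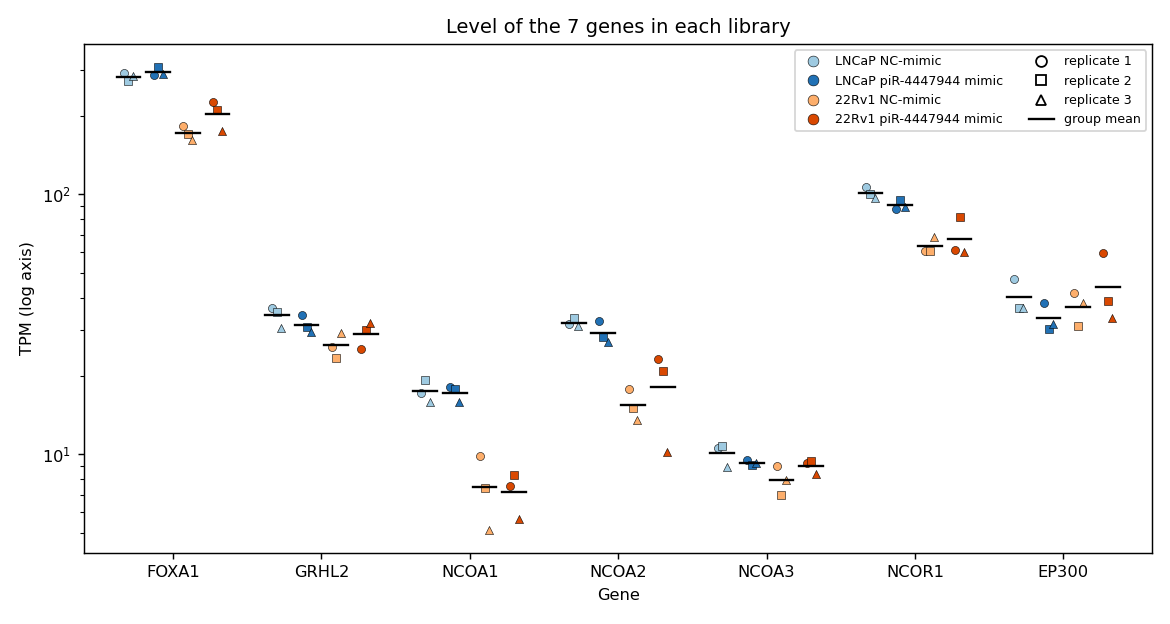
Level in TPM (log axis) of each of the 7 genes in each of 12 libraries. Colours mark the 4 groups, marker shapes the replicate number, and bars the mean of 3 libraries. FOXA1 lies above NCOR1 in every library, and NCOA1 and NCOA2 have their lowest values in the replicate 3 libraries of 22Rv1.

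The place of NCOR1 and EP300 in that order depends on length. RSEM divides by a mean transcript length that it estimates for each library from the isoforms it finds. For NCOR1 that length was between 31.9% and 43.1% of the annotated canonical transcript of 10705 bases, and for EP300 between 47.5% and 88.7% of 8779 bases. For the other 5 genes it was between 69.3% and 99.96%. Counts were also taken per 1000000 counts of a library after scaling of the library size (CPM, defined with the processing below). When CPM were divided by the length of the canonical transcript, NCOR1 had a mean of 23.1 CPM per kilobase in the LNCaP libraries. GRHL2 had 21.7 and EP300 20.5 there. NCOR1 was above EP300 in 9 of 12 libraries and above GRHL2 in 9 of 12. FOXA1 kept its place on both scales, between 2.36 and 3.72 times the next gene in TPM and between 4.01 and 7.03 times per kilobase. Comparisons of the 7 genes between samples are therefore given below mainly in CPM and from tests on counts, which do not use that length. The p160 shares, their summed TPM and the levels of genes from other lists are in TPM and do use it.

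**Figure D2:**
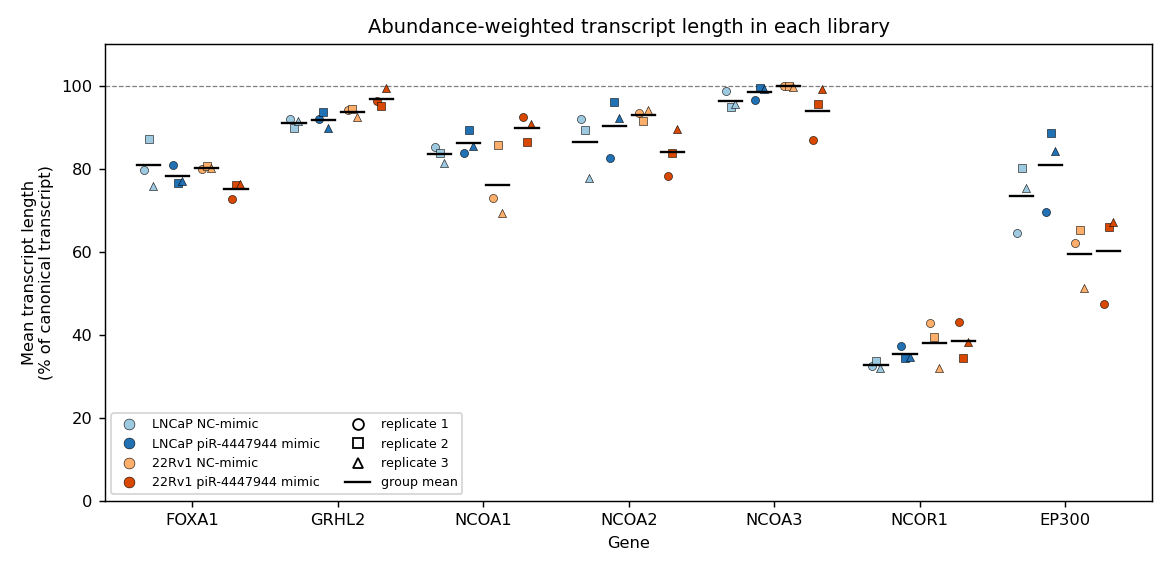
Mean transcript length used for TPM, as a percentage of the canonical transcript (dashed line, 100%), for each gene and library. Colours mark the 4 groups, shapes the replicate number, and bars the mean of 3 libraries. NCOR1 lies between 31.9% and 43.1% in all libraries, and EP300 is spread from 47.5% to 88.7%.

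To ask whether the piRNA changed these factors, the piR-4447944 mimic libraries were compared with the NC-mimic libraries within each line. In neither line did a member pass the test, for which a gene was called at an adjusted p under 0.05. By the quasi-likelihood (QL) F-test of edgeR, with p-values adjusted after Benjamini and Hochberg (BH) over all genes, 0 of 7 members were called in LNCaP, where 0% of 16244 genes were called, and 0 of 7 in 22Rv1, where 0% of 16898 genes were called. At an unadjusted p under 0.05 there were also 0 members in both lines (2.67% of all genes in LNCaP and 1.48% in 22Rv1), and DESeq2 and limma called 0 as well. The median log2 fold change of the members was -0.079 in LNCaP (-0.0027 over all genes) and 0.075 in 22Rv1 (-0.0052 over all genes). The smallest adjusted p of a member was 0.999 in both lines. The LNCaP values moved without the NC-mimic library of replicate 3. In that setting all 7 estimates were negative, with a median of -0.14. NCOA2 and EP300 then had an unadjusted p under 0.05 (0.038 and 0.048 by the edgeR QL test), as had 1255 of 16658 genes, and 0 members were called.

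The intervals show which sizes of change these libraries leave possible. In LNCaP the 95% confidence intervals of all 7 members lay between 0.825-fold and 1.16-fold. In 22Rv1 they lay between 0.642-fold and 1.71-fold, and the widest were those of NCOA1 (0.692-fold to 1.71-fold) and NCOA2 (0.642-fold to 1.54-fold). They come from a fit without pairing. With the replicate number as a block, the 22Rv1 intervals were narrower for every member but NCOA3. On the log2 scale they were -0.21 to 0.53 for NCOA1 (-0.53 to 0.77 without the block). For NCOA2 they were -0.52 to 0.38 (-0.64 to 0.63), and for NCOA3 -0.32 to 0.37 (-0.30 to 0.34). None of these intervals is adjusted for the number of genes. Changes of a size within them remain possible, so the lack of a call does not show that there was no change. The intervals are not limits of detection.

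For FOXA1, the CPM of the LNCaP libraries were 560.2, 569 and 535 with NC-mimic and 565, 569 and 544 with piR-4447944 mimic. Those groups overlapped almost fully, with a log2 fold change of 0.0096 ± 0.058 (SE). In 22Rv1 FOXA1 was at 365, 353 and 334 CPM with NC-mimic and at 402, 385 and 322 CPM with the mimic. Replicates 1 and 2 were above all controls and replicate 3 was below them. The log2 fold change in 22Rv1 was 0.075 ± 0.14, and it was 0.17 when the mimic library of replicate 3 was left out.

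GRHL2 was at 126, 117 and 109 CPM in LNCaP with NC-mimic and at 119, 109 and 100.3 CPM with the mimic. In 22Rv1 it was at 94.4, 88.9 and 109 CPM with NC-mimic and at 94.1, 108 and 119.8 CPM with the mimic. Replicate 3 was the highest of its group in both arms of 22Rv1, and the groups overlapped in both lines. The log2 fold changes were -0.10 ± 0.081 in LNCaP and 0.13 ± 0.14 in 22Rv1. In 22Rv1 it was 0.054 without the mimic library of replicate 3 and 0.22 without the NC-mimic library of replicate 3.

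Among the p160 coactivators, NCOA1 was at 78.5, 85.4 and 71.8 CPM in LNCaP with NC-mimic and at 81.4, 86.3 and 73.5 CPM with the mimic. In 22Rv1 it was at 39.5, 36.5 and 20.2 CPM with NC-mimic and at 38.5, 38.9 and 27.7 CPM with the mimic. In each arm of 22Rv1, replicate 3 lay well below the other libraries, by 0.91 and 0.48 on the log2 scale. The fitted change of NCOA1 in 22Rv1 was 0.12 ± 0.28 on the log2 scale, and it was -0.12 without the NC-mimic library of replicate 3.

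NCOA2 was at 179.9, 183 and 154 CPM in LNCaP with NC-mimic and at 166, 168 and 155 CPM with the mimic. In 22Rv1 it was at 106, 91.1 and 84.3 CPM with NC-mimic and at 115, 109 and 56.7 CPM with the mimic. Here too replicates 1 and 2 of the mimic were above every control and replicate 3 below them all. Its log2 fold change in 22Rv1, -0.0067 ± 0.27, became 0.26 without that library and 0.19 without both replicate 3 libraries, with no call in either case.

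NCOA3 was at 60.9, 58.9 and 51.8 CPM in LNCaP with NC-mimic and at 53.7, 53.0 and 54.4 CPM with the mimic. In 22Rv1 it was at 54.5, 43.4 and 49.7 CPM with NC-mimic and at 48.1, 53.0 and 48.8 CPM with the mimic. The groups overlapped in both lines, and replicate 3 of 22Rv1 did not stand apart for NCOA3.

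EP300 came nearest to the threshold. Its CPM in LNCaP were 193, 186 and 184 with NC-mimic and 169.6, 174 and 173 with the mimic, so the groups did not overlap. EP300 was 1 of 7 members without overlap in CPM in LNCaP, against 7.86% of all genes, and in 22Rv1 there were 0 of 7, against 8.78%. The log2 fold change was -0.12 ± 0.060, with an edgeR QL p of 0.0605 before and 0.999 after BH adjustment. In TPM the same groups overlapped. In 22Rv1 EP300 was at 169.7, 138 and 131 CPM with NC-mimic and at 181, 164 and 144 CPM with the mimic. Each mimic library of 22Rv1 was above the control with its number, but the groups overlapped, and the log2 fold change was 0.15 ± 0.16. It was 0.24 without the mimic library of replicate 3 and 0.081 without the NC-mimic library of replicate 3.

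NCOR1, the corepressor, was at 259, 252 and 239 CPM in LNCaP with NC-mimic and at 247, 248 and 236 CPM with the mimic. In 22Rv1 it was at 203, 194 and 176 CPM with NC-mimic and at 206, 213 and 174 CPM with the mimic. The groups overlapped in CPM in both lines. The log2 fold change of NCOR1 in 22Rv1 was 0.048 ± 0.14. It was 0.14 without the mimic library of replicate 3 and -0.0059 without the NC-mimic library of replicate 3. In TPM the LNCaP groups of NCOR1 did not overlap and the mimic libraries were lower (8.40% of all genes did not overlap in TPM there), while the mean transcript length was larger in each mimic library than in each control.

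The difference in mimic effect between the lines was tested as an interaction over all 12 libraries. No member passed (0 of 7 by the edgeR QL test, against 0% of 18720 genes), and 0 of 7 had an unadjusted p under 0.05, against 3.26% of all genes. The largest differences, 22Rv1 minus LNCaP, were those of EP300, 0.28 (95% interval -0.070 to 0.63), and GRHL2, 0.24 (-0.13 to 0.60) on the log2 scale. With the replicate number as a block EP300 had an edgeR QL p of 0.0350 before and 0.886 after BH adjustment, so that it was still not called. That block also pairs equal numbers in LNCaP, which were not taken as pairs. For the mean effect over both lines the count was again 0 of 7 (0% of 18720 genes called, 1.82% at an unadjusted p under 0.05 with 0 members), and the estimates lay between -0.042 and 0.076 on the log2 scale.

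The comparison of the lines gave the larger differences. With NC-mimic, FOXA1, NCOA1, NCOA2, NCOR1 and EP300 were lower in 22Rv1 than in LNCaP, which makes 5 of 7 members lower and 0 higher. In the same comparison 58.4% of 17497 genes were called, 27.5% of them lower and 30.9% higher as a share of all genes tested. With piR-4447944 mimic, in libraries that the other comparison did not use, 4 of 7 members were lower and 0 higher, where 52.4% of 17283 genes were called and 24.2% were called lower and 28.2% higher. The median log2 fold change of the members was -0.40 with NC-mimic (0.015 over all genes) and -0.30 with the mimic (0.043 over all genes). In CPM the lines did not overlap, with 22Rv1 lower, for 6 of 7 members with NC-mimic (32.5% of all genes) and for 5 of 7 with the mimic (32.0%). So many genes differed between these lines that a call by itself says little about the members, and their sizes are given instead.

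NCOA1 had the largest difference of the members. It was at 0.408-fold of the LNCaP level with NC-mimic (95% interval 0.283 to 0.588) and at 0.438-fold with piR-4447944 mimic (0.339 to 0.566). The BH-adjusted edgeR QL p-values were 0.00161 and 0.000940. Without the NC-mimic library of replicate 3 of 22Rv1, in which NCOA1 was lowest, the log2 fold change with NC-mimic was -1.06 in place of -1.29, and it remained called. NCOA2 followed at 0.543-fold (0.449 to 0.656) with NC-mimic and 0.575-fold (0.381 to 0.870) with the mimic, with adjusted p-values of 0.000399 and 0.0333 in the same test. Without the mimic library of replicate 3 of 22Rv1, in which NCOA2 was at 56.7 CPM, the log2 fold change with the mimic was -0.54 in place of -0.80 (adjusted p 1.77e-05 by edgeR). The call of NCOA2 with the mimic was lost without any single LNCaP library of the comparison and in limma on log2(TPM + 1), at adjusted p-values of up to 0.121. NCOA3 was at 0.855-fold (0.703 to 1.04) and 0.935-fold (0.801 to 1.09), and was not called in either comparison.

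FOXA1 was at 0.628-fold of the LNCaP level with NC-mimic (0.550 to 0.716) and at 0.664-fold with the mimic (0.556 to 0.793). With adjusted p-values of 0.000248 and 0.00380 (edgeR QL, BH), it was called under every alternative in both comparisons, as was NCOA1. The lowest LNCaP library of FOXA1 (535 CPM) was above the highest 22Rv1 library (402 CPM). Without the mimic library of replicate 3 of 22Rv1, the log2 fold change of FOXA1 with the mimic was -0.50 in place of -0.59. GRHL2 was not called in either comparison. It was at 0.825-fold (0.695 to 0.980) with NC-mimic, at an adjusted p of 0.0546 in edgeR's test, and at 0.984-fold (0.805 to 1.20) with the mimic. In the NC-mimic libraries the lines did not overlap for GRHL2, but only just. The lowest LNCaP library was at 109.12 CPM and the highest 22Rv1 library at 109.08 CPM. In the mimic libraries the lines overlapped for GRHL2. With NC-mimic it was called without replicate 3 of 22Rv1 (log2 fold change -0.37, adjusted p 0.00442 by edgeR), without replicate 3 of LNCaP (-0.35) and without a low-count filter (-0.32).

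NCOR1 was at 0.759-fold of LNCaP with NC-mimic (0.656 to 0.878) and at 0.815-fold with the mimic (0.688 to 0.965). After BH adjustment, the edgeR QL p-values were 0.00591 and 0.0470. With the replicate number as a block the latter was 0.0649, but that block matches numbers across the lines, where pairing was not checked. The call with the mimic was lost in 6 of 9 alternatives, the block among them, and 5 of 6 settings without 1 library. Without the mimic library of replicate 3 of 22Rv1 it was kept, at a log2 fold change of -0.21 in place of -0.30 (adjusted p 0.00686 by edgeR). EP300 was at 0.775-fold (0.647 to 0.928) with NC-mimic, at an adjusted p of 0.0225 by edgeR, and at 0.950-fold (0.800 to 1.13) with the mimic, at an adjusted p of 0.582. The call with NC-mimic was lost on log2(TPM + 1) with limma (adjusted p 0.611 at most over the TPM settings) and without LNCaP replicate 1 or 2 or 22Rv1 replicate 2. That EP300 was called with NC-mimic and not with piR-4447944 mimic does not show that the mimic changed it, because the interaction given above did not pass the test.

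**Figure D3:**
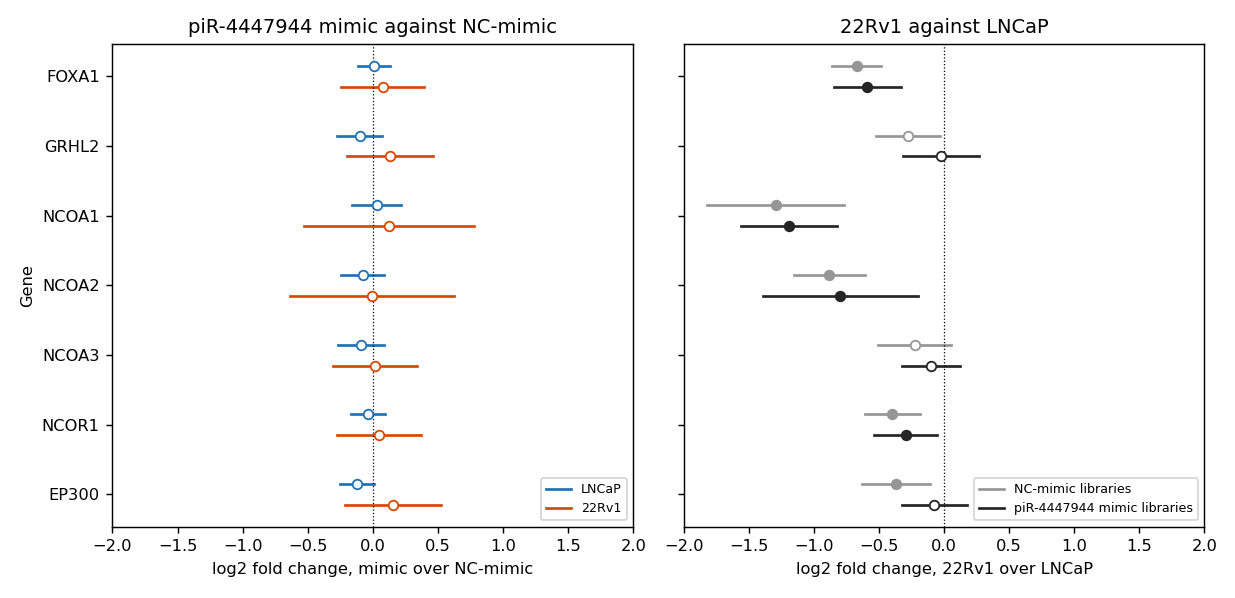
Log2 fold change (points) with its 95% confidence interval (lines) for each gene, from the edgeR QL fit of 3 libraries against 3. The left panel shows piR-4447944 mimic over NC-mimic in each line and the right panel 22Rv1 over LNCaP within each arm, and filled points have an adjusted p under 0.05. All intervals on the left include 0, while FOXA1, NCOA1, NCOA2 and NCOR1 lie below 0 in both arms on the right.

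The make-up of the p160 family was also set side by side for the lines, as the share of each gene in their summed TPM. The share of NCOA3 in the summed TPM of the family had a lowest value of 15.8%, a median of 16.7% and a highest value of 17.8% in the 6 LNCaP libraries. In the 6 libraries of 22Rv1 these were 23.1%, 24.5% and 34.6%, so the lines did not overlap. The mean level of NCOA3 itself was not higher in 22Rv1, at 8.51 ± 0.94 TPM against 9.69 ± 0.79 in LNCaP. For NCOA1 the shares were 28.4%, 30.2% and 32.4% in LNCaP and 18.8%, 22.4% and 26.8% in 22Rv1, again without overlap. NCOA2 made up the largest share in every library, at 53.1% ± 1.60 (SD, n = 6) in LNCaP and 50.8% ± 5.38 in 22Rv1, and the lines overlapped. No test was run on these shares. The 2 highest shares of NCOA3, 30.0% and 34.6%, were those of replicate 3 of 22Rv1, and the other 22Rv1 libraries were between 23.1% and 24.6%, still above all LNCaP libraries. The summed TPM of the family had a mean of 57.7 ± 4.13 in LNCaP and 32.7 ± 6.71 in 22Rv1 (n = 6 each).

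**Figure D4:**
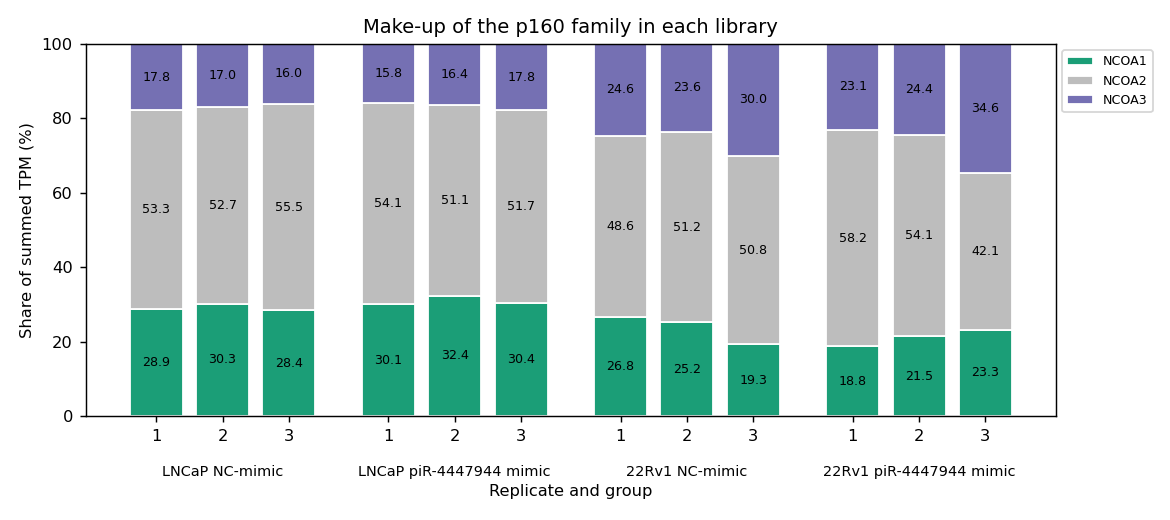
Share of NCOA1, NCOA2 and NCOA3 in their summed TPM (percent) in each of 12 libraries, as stacked bars labelled with their values. The share of NCOA3 is between 15.8% and 17.8% in LNCaP and between 23.1% and 34.6% in 22Rv1.

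The corepressor was set against the p160 coactivators in the same way, with no test. NCOR1 had 0.770 to 0.863 counts per count of the 3 p160 genes in the LNCaP libraries (median 0.816) and 1.01 to 1.31 in the 22Rv1 libraries (median 1.10), which did not overlap. Lengths cancel in the comparison of the lines only as far as the isoforms are alike. NCOR1 itself was not higher in 22Rv1, at 0.759-fold of LNCaP with NC-mimic and 0.815-fold with the mimic. FOXA1 had 4.93 ± 0.34 counts per count of GRHL2 in LNCaP and 3.57 ± 0.60 in 22Rv1 (SD, n = 6), also without overlap, from 4.46 upwards in LNCaP and up to 4.27 in 22Rv1.

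Other genes of the same pathways were counted from lists, and up to 4 called genes with the largest changes with NC-mimic are named from each. The counts are to be read against all genes tested, of which 30.9% were higher and 27.5% lower in 22Rv1 with NC-mimic, and 28.2% and 24.2% with the mimic. Of 15 further coactivators, 14 could be tested with NC-mimic, of which 4 were higher and 5 lower in 22Rv1, and with the mimic 3 of 15 were higher and 3 lower. The median log2 fold changes were -0.18 and -0.047. PPARGC1B, a coactivator of mitochondrial genes (3.28 ± 0.1997 TPM in LNCaP and 5.84 ± 0.601 in 22Rv1 with NC-mimic), and the arginine methyltransferases CARM1 (26.9 ± 1.06 and 48.6 ± 2.30 TPM) and PRMT1 (235 ± 7.31 and 356 ± 26.9 TPM) were higher. NCOA7 was lower, at 24.8 ± 0.703 against 9.24 ± 1.93 TPM. Of 12 genes of corepressor complexes, 4 were higher and 6 lower with NC-mimic, and 4 and 5 with the mimic (medians -0.22 and -0.17). TBL1XR1, a subunit of the NCOR1 complex, was lower in 22Rv1 (157 ± 5.37 against 48.7 ± 6.84 TPM), as were the ligand-dependent corepressors NRIP1 (22.0 ± 1.25 against 6.63 ± 0.63 TPM) and LCOR (28.3 ± 14.15 against 11.0 ± 2.25 TPM), while GPS2, another subunit of that complex, was higher (27.0 ± 2.58 against 52.1 ± 3.80 TPM). So TBL1XR1 and GPS2 differed in opposite directions.

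Of 15 other lineage factors, 13 could be tested, with 6 higher and 4 lower in 22Rv1 with NC-mimic and 5 higher and 4 lower with the mimic (medians -0.13 and -0.37). EHF, an epithelial ETS factor, was at 185 ± 11.0 TPM in LNCaP and 42.6 ± 5.62 TPM in 22Rv1, and GRHL3, a relative of GRHL2, at 1.77 ± 0.572 and 0.450 ± 0.246 TPM. Higher in 22Rv1 were KLF5, at 2.00 ± 0.881 and 12.8 ± 7.74 TPM, and SOX9, at 3.27 ± 0.80 and 14.3 ± 4.13 TPM. Of 8 epithelial genes linked to GRHL2, 3 were lower and 2 higher in each arm (medians -0.15 and -0.28). RAB25, a small GTPase of epithelial cells, had the largest difference of this list, at 123 ± 2.04 TPM in LNCaP and 2.697 ± 3.84 TPM in 22Rv1, and the membrane protease ST14 was at 78.5 ± 7.03 and 32.8 ± 9.37 TPM. CDH1 (E-cadherin) was at 248 ± 23.1 and 132 ± 22.2 TPM and ESRP1, an epithelial splicing factor, at 32.6 ± 7.37 and 56.4 ± 4.76 TPM. Of 12 androgen-induced genes 6 were lower and 3 higher in each arm (medians -1.13 and -2.04), where 12 could be tested with NC-mimic and 11 with the mimic. KLK3, which encodes PSA, was lower, at 2043 ± 208 TPM in LNCaP and 49.6 ± 3.60 TPM in 22Rv1, as was ACP3, the prostatic acid phosphatase, at 161 ± 5.62 and 9.36 ± 2.20 TPM. The channel gene TRPM8 was lower as well, at 2.01 ± 0.847 and 0.0633 ± 0.110 TPM, while STEAP4 was higher, at 0.0767 ± 0.0815 and 0.640 ± 0.690 TPM, both at low levels. All genes named from the lists had an adjusted p under 0.05 in edgeR's test in the NC-mimic comparison. That test used counts, so the gaps in TPM need not match its log2 fold changes. These were -0.94 for NCOA7 and -0.79 for LCOR, for example. In all 5 lists, 0 genes were called for the effect of the mimic in either line. At an unadjusted p under 0.05 (edgeR QL) there were 2 of 11 androgen-induced genes in 22Rv1, against 1.48% of all genes. In the mean effect there were 3 of 12, against 1.82%. The median log2 fold changes of that list were -0.15 and -0.11. It had 0 of 11 such genes in LNCaP, and the other lists had 0 in each line and in the mean effect.

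The genes most like each member over the 12 libraries were found by Pearson's r of log2 CPM among 18720 genes. As the libraries form 2 separate lines, with 6 each, r follows the gap between the lines for any gene that differs between them, and no p is given. FOXA1 was most like DMXL1 (r = 0.997) and SGMS1, NCOA1 like PTGFR (0.994) and RALGPS1, NCOA2 like ATP6V1A (0.990) and CLOCK, NCOR1 like OSBPL1A (0.988) and ATR, and EP300 like ASAP2 (0.968) and DYNC1I2. The values for GRHL2 (CREB1, 0.890, and GTF2B) and NCOA3 (FAM120B, 0.893, and RAD17) were lower. Between members, r was between 0.919 and 0.973 for every pair of FOXA1, NCOA1, NCOA2 and NCOR1, and between 0.243 and 0.616 for GRHL2 with each other member.

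Because the piRNA is studied as a repressor that pairs with 3'UTRs, the canonical transcripts of the members were searched on the sense strand for ATAGCTT, which pairs with piRNA bases 2 to 8. None of the 7 members held it in the 3'UTR, against 10.2% of 19218 genes (1958) with an annotated 3'UTR. There was 1 match in a coding sequence, in exon 11 of NCOA3 (bases 1546 to 1552 of the canonical transcript), on the plus strand of hg38 at chr20:47635524-47635530. It is shown since it is the only match in the set, with the 7 matching bases in capitals.
NCOA3: ttccagtaacATAGCTTcattgacccc
A match of these letters is a description and not a binding site. The paper instead predicted targets with the program miRanda, by limits on alignment score and binding energy. That rule was not applied here. NCOA3 did not pass the test of the mimic in either line, with log2 fold changes of -0.094 ± 0.082 in LNCaP and 0.018 ± 0.14 in 22Rv1.

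In hg38 with the GENCODE v44 annotation, FOXA1 lies on chromosome 14 from 37589552 to 37596059 (minus strand), NCOA1 on chromosome 2 from 24491254 to 24770702 (plus) and NCOA3 on chromosome 20 from 47501887 to 47656877 (plus). NCOR1 lies on chromosome 17 from 16029065 to 16218185 (minus) and EP300 on chromosome 22 from 41092592 to 41180077 (plus). GRHL2 (101492439 to 101669726, plus) and NCOA2 (70109782 to 70403808, minus) are both on chromosome 8. Some members share bases with genes on the other strand, and whether the counting used strand was not given in the sources used here. TTC6, which overlaps FOXA1, had counts that came to 16.1% of those of FOXA1 over all libraries, and TTC19, which overlaps NCOR1, to 41.3% of those of NCOR1. If strand was not used, reads from the shared bases cannot be told apart. Over all 12 libraries together, the pseudogene NCOR1P4 had 10 counts and NCOR1P2 had 5, NCOR1P1 and NCOR1P3 had 0, and EP300-AS1 had 6.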

How the data were processed

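RNA-seq of mRNA was available for 12 libraries, 3 in each of 4 groups (LNCaP or 22Rv1 cells, NC-mimic or piR-4447944 mimic). According to the methods and the submitters' processing notes, the authors used STAR 2.7.1a for alignment to hg38 and RSEM 1.3.0 for quantification, and named R 4.1.1 and DESeq2 1.34.0 for their own tests. The expected counts the authors deposited are RSEM estimates per gene without normalization, and the TPM they deposited are scaled for RSEM's effective length and depth. The annotation release, the library kit and the use of strand were not given in the sources used here. TPM in the common table and in the single tables differed by 0.

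After rounding, the expected counts went into edgeR 4.0.16 under R 4.3.3 (TMM, filterByExpr, glmQLFit, glmQLFTest), with Benjamini-Hochberg adjustment over all genes of a fit, in 6 libraries for each comparison of 3 against 3 and in all 12 for the mean effect and the interaction. Standard errors and 95% intervals were derived from the estimate and the test statistic. CPM are expected counts per 1000000 of the library size, which was taken over the genes that passed filterByExpr in all 12 libraries and scaled by the TMM factor. Libraries held from 12161091 to 22179601 expected counts. Some of the fits were also run on simulated data. No outcome of that run is given here, so it does not bear on the results above. Alternatives were DESeq2's size factors, other low-count filters, a replicate block, DESeq2 1.42.0, limma 3.58.1 on log2(TPM + 1) and log2(TPM + 0.1), 1 fit of all libraries, and leaving out libraries. For genes with low TPM, adding 1 before the logarithm makes a fold change smaller than it is.

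The 7 members and the lists of other genes were chosen with earlier results of these data known, so they are no independent selection. The text names the members, the genes that share bases or sequence with them, the 2 genes most like each member, and from each list at most 4 genes with an adjusted p under 0.05, by the size of the change, here for 22Rv1 against LNCaP with NC-mimic. Replicate numbers in the labels were checked for pairing by the correlation across genes of deviations from the group means. It was 0.139, 0.126 and 0.294 for replicates 1, 2 and 3 in 22Rv1, which were taken as paired from the values alone, by a limit of 0.1. The main tests did not use this pairing, which enters only the alternative with a replicate block. Unlike numbers gave 0.134 (NC-mimic 1 with mimic 2) and 0.0952 (NC-mimic 2 with mimic 1), so replicates 1 and 2 are not told apart from each other by these values. In LNCaP the correlations were 0.0036, 0.00097 and 0.142, and the numbers were not taken as pairs. The alternative with a replicate block was run there all the same, and it pairs LNCaP numbers in the mean effect and the interaction too. Transcript lengths, positions and motifs came from GENCODE v44 on hg38. The authors' other experiments were not analysed here.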

Additional observations from a re-analysis of the deposited data

How the results depend on the processing

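The effect of the mimic called 0 of 7 members in every comparison and setting that was run, including each setting without 1 library. Its estimates nevertheless changed sign in the settings given below. Settings that use TPM depend on RSEM's mean transcript lengths. On log2(TPM + 1) and log2(TPM + 0.1) with limma, the median over all genes for 22Rv1 against LNCaP with NC-mimic moved from 0.015 to -0.11 and -0.12. Values below are log2 fold changes.

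With limma on log2(TPM + 1) and log2(TPM + 0.1), NCOA1 was -0.0127 and -0.0133 in LNCaP, -0.0275 and -0.0275 in 22Rv1, -0.0201 and -0.0204 in the mean effect and -0.0148 and -0.0142 in the interaction. NCOA2 was 0.15 and 0.15 in 22Rv1, and 0.0063 and 0.0060 in the mean effect. In the mean effect NCOA3 was 0.0277 and 0.0318, NCOR1 -0.0375 and -0.0377, and EP300 -0.0250 and -0.0261. EP300 in 22Rv1 against LNCaP with the mimic was 0.35 and 0.36. Without a low-count filter NCOR1 was -0.0054 in the mean effect. Without both replicate 3 libraries of 22Rv1, NCOA2 was 0.19 in 22Rv1 and 0.0222 in the mean effect, GRHL2 -0.0066 and EP300 -0.0098 in the mean effect, NCOA1 -0.0107 in the interaction and EP300 0.0043 in 22Rv1 against LNCaP with the mimic. The cause of these reversals was not tested.

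The count of members called between the lines with the mimic was 4, and 2 with limma on either TPM scale. Without 1 library it was between 2 and 4, and with NC-mimic between 4 and 6 (main 5). With the replicate block, which here matches numbers across the lines without a check of pairing, the mimic comparison called 3 members. NCOR1 was lost (adjusted p 0.0649 by edgeR), and the block changed no other call. Both limma scales lost NCOA2 and NCOR1 with the mimic and EP300 with NC-mimic. The p160 shares in LNCaP by expected counts were 26.3% for NCOA1, 55.4% for NCOA2 and 18.3% for NCOA3, and by counts per kilobase of the canonical transcript, a choice made after seeing the data, 28.6% for NCOA1 and 18.5% for NCOA3. By expected counts NCOA1 was 18.9% in 22Rv1.

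Without 1 library at a time, the estimates that changed sign ranged in LNCaP from -0.013 to 0.031 for FOXA1 and from -0.028 to 0.096 for NCOA1. In 22Rv1 they ranged from -0.0032 to 0.17 for FOXA1, from -0.12 to 0.29 for NCOA1, from -0.20 to 0.26 for NCOA2, from -0.064 to 0.092 for NCOA3 and from -0.012 to 0.14 for NCOR1. In the mean effect they ranged from -0.033 to 0.059 for GRHL2, from -0.034 to 0.15 for NCOA1, from -0.12 to 0.068 for NCOA2, from -0.032 to 0.039 for NCOR1 and from -0.035 to 0.053 for EP300. In the interaction the ranges were -0.15 to 0.27 for NCOA1 and -0.10 to 0.33 for NCOA2. Between the lines with the mimic they were -0.11 to 0.062 for GRHL2 and -0.16 to 0.0043 for EP300.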
